A study of Mus musculus with 24 samples.

Results

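The comparison of pure taurochenodeoxycholic acid (tCDCA), a taurine-conjugated bile acid, with an extract from wild-type (WT) donor mice labelled CME(-) rests on 8 libraries of the 24 in the series, 4 per group, chosen by their sample titles. All tissue was wild-type: fragments of ileum, the last segment of the small intestine, from male C57BL/6J mice that had been starved for 4 h, kept for 8 h in Advanced DMEM/F12 with antibiotics, HEPES and GlutaMAX. The tCDCA group received tCDCA and the WT CME(-) group the extract. For replicates 2 to 4 of both groups the labels give 200 µM, and for replicate 1 they give no concentration. The extract labels name a separate WT donor for each of replicates 2 to 4, and the labels do not spell out CME. Groups drawn on beside these were DMSO, the solvent, at 0.6%, the WT extract labelled CME(+), and the CME(-) and CME(+) extracts of donors lacking Asbt, the bile acid uptake carrier. The treated tissue carried Asbt in every group. The labels give no age and do not say whether the 4 cultures of a group used tissue of different mice. The p-values therefore reflect only how far libraries scatter, part of which may be technical. That scatter was estimated over 21 libraries of all 6 groups, not over the 8 alone. The series asked which genes endogenous bile acids regulate, and this contrast sets a single bile acid against a mixture from intact mice.

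Bile acids are made in the liver, help absorb fat in the gut and return to the liver through the ileum. Ileal enterocytes take them up through the carrier encoded by Slc10a2, hold them on the binding protein encoded by Fabp6 and export them through the heterodimer of Slc51a and Slc51b. The nuclear receptor FXR, encoded by Nr1h4, binds chenodeoxycholic acid and its taurine conjugate, induces the hormone gene Fgf15 and the exporter genes, and lowers Slc10a2. Bile acids are also detergents that can stress epithelial cells.

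The 8 libraries held 2.93 to 5.6 M counts each. Replicate 1 of each group carries another column prefix than replicates 2 to 4, taken here as a first and a second sequencing run, and run was a term of the model. Mitochondrial rRNA took 7.69 and 7.95% of counts in replicate 1 of tCDCA and WT CME(-), and 26.22 to 33.14% in 5 of the 6 second-run libraries. The exception was tCDCA replicate 3, at 5.29%, so a fit without it is reported below for the total count, some lists and some named genes. Fabp6 at 2624 to 7983 CPM (counts scaled to the library's total after TMM normalization) and Slc10a2 at 95 to 239 CPM in the 8 libraries matched the ileal label.

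Of 13125 genes tested, 71 (0.541%) differed between tCDCA and WT CME(-) at an edgeR adjusted p under 0.05, here termed called. With tCDCA 35 (0.267%) were higher and 36 (0.274%) lower, and 36 of the 71 differed at least 2-fold. The higher genes were led by chemokine, cytokine and tissue-injury genes, and the lower ones held peptidases of the brush border, carriers of amino acids and organic ions, and the clock output gene Dbp. The genes that respond most to FXR in ileum were not among the called ones. All 35 higher genes had every tCDCA library above every WT CME(-) library within each run, and all 36 lower genes had every one below. Over all genes tested those orders held for 4.62% and 4.35%, 8.97% in both directions together. The calls were made from these same libraries, so the order within called genes is no further support for them. At an unadjusted p under 0.05, 1403 genes (10.7%) passed, 725 (5.52%) higher and 678 (5.17%) lower.

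**Figure D1:**
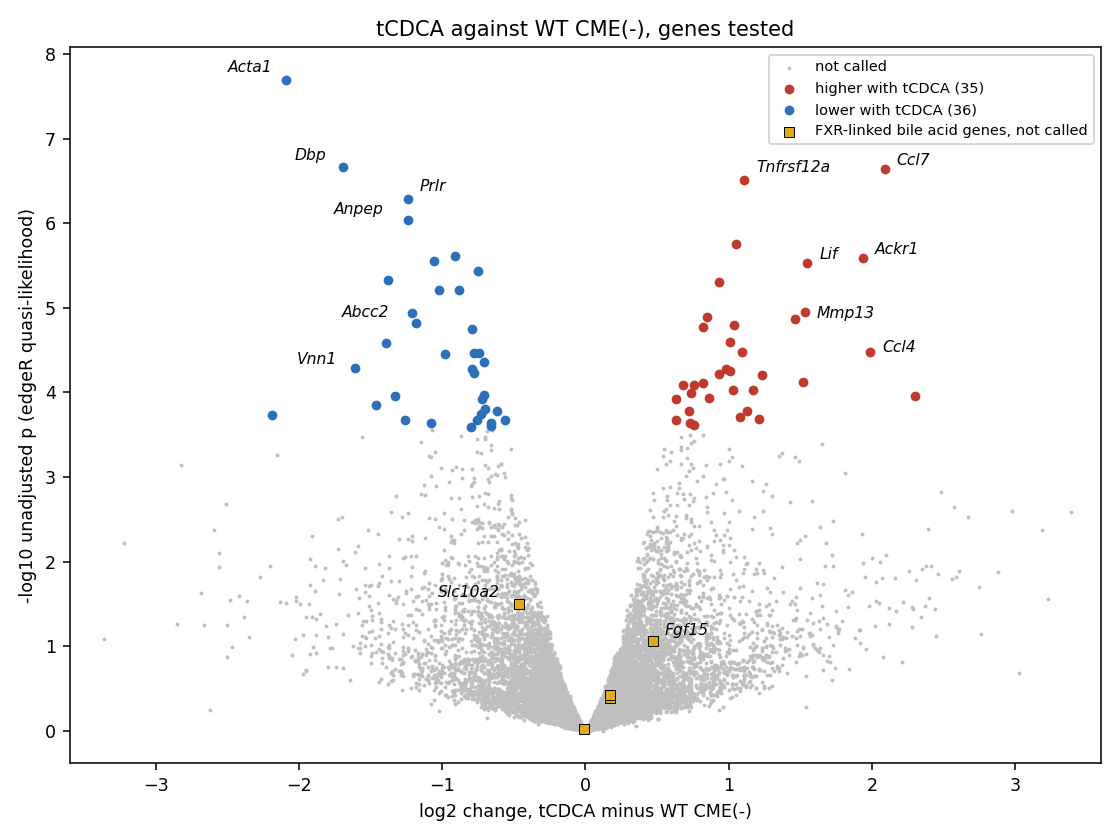
Each point is a gene tested, placed by its log2 change (tCDCA minus WT CME(-), x axis) and its edgeR -log10 unadjusted p (y axis), with 35 called higher in red and 36 called lower in blue. The yellow squares are Fgf15, Slc10a2, Slc51a, Slc51b and Fabp6, which lie low in the plot, and 15 uncalled genes beyond a log2 change of 3.5 are not drawn.

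The fit without a run term called no gene, against 71 with it. In that fit the difference between the runs stays in the spread within groups. With the 8 libraries alone, which then set the spread, 17 genes were called. Leaving out 1 library at a time gave 30 to 135 called genes. The count was 36 without tCDCA replicate 3, the library low in mitochondrial rRNA, and 34 of those were among the 71. Without that library Xpnpep2, Espn, Slc43a2, Slc47a1, A1cf, Fam118a, Rbm14, Ranbp3, Ints5 and Fam207a lost the call. So did Sult1b1, Vnn1, Ccl2, Il1rn, Ereg, Chac1, Slc7a11 and Mxi1. The count was 30 without tCDCA replicate 4, and 36, 42 and 32 without WT CME(-) replicates 1, 3 and 4. Without tCDCA replicate 1 it was 135. Ackr1, Acta1, Anpep, Ccl7, Dbp, Lif, Prlr and Tnfrsf12a stayed called in all 19 alternatives other than the fit without the run term, and the other called genes named here lost the call in at least 1 further alternative. The first run gave a check that the second run did not use. Of 76 genes called from the second-run libraries alone, 66 (86.8%) differed in the same direction between the 2 first-run libraries, with a median difference of 0.4 log2 units in that direction against 1.1 in the second run. Over all genes tested in that fit the share was 53.4%.

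Fgf15 (ENSMUSG00000031073), the enterocyte hormone that reports FXR activity to the liver, was at 265 CPM in the first-run tCDCA library and at 174, 272 and 249 CPM in replicates 2 to 4. In WT CME(-) it was at 312 CPM in the first run and at 175, 126 and 105 CPM in the second. The groups overlapped, and the first-run pair went against the second. The log2 change was 0.47 ± 0.26 (SE), with a 95% interval of -0.08 to 1.02 and an edgeR adjusted p of 0.551. Both treatments were far above DMSO, whose 3 libraries were at 5.94 to 7.95 CPM: by 4.98 log2 units with tCDCA (adjusted p = 2.89e-07) and by 4.51 with WT CME(-) (adjusted p = 5.62e-06). Those 2 contrasts share the DMSO libraries.

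The exporter subunit gene Slc51b (ENSMUSG00000053862) was at 465, 307, 479 and 428 CPM with tCDCA and at 661, 435, 302 and 349 CPM with WT CME(-), a log2 change of -0.01 ± 0.18 with an interval of -0.37 to 0.35. Its partner Slc51a was at 251, 233, 414 and 379 against 288, 323, 278 and 235 CPM, with a change of 0.17 ± 0.19 and an interval of -0.22 to 0.56. For the binding protein gene Fabp6 the interval was -0.24 to 0.58. Against DMSO, Slc51b was higher by 0.91 with tCDCA (adjusted p = 0.00289) and by 0.92 with WT CME(-) (adjusted p = 0.0274). The interval of the difference between the 2 treatments was within 0.6 log2 units on either side for these 3 genes, whereas that of Fgf15 reached a doubling with tCDCA.

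Slc10a2 (ENSMUSG00000023073), the uptake carrier gene, was at 95 CPM with tCDCA and 109 CPM with WT CME(-) in the first run. In the second run tCDCA libraries had 168, 104 and 162 CPM and WT CME(-) libraries 224, 239 and 174 CPM. Every tCDCA library lay below the WT CME(-) libraries of its run, by 0.46 ± 0.2 log2 units, but the adjusted p was 0.402 and the gene was not called. Both treatments were below DMSO (405 to 658 CPM), by -1.77 with tCDCA (adjusted p = 6.37e-06) and by -1.32 with WT CME(-) (adjusted p = 0.0036). Nr1h4 itself was at 13.2 to 27.8 CPM with tCDCA and 16.9 to 30.1 CPM with WT CME(-), with a log2 change of 0.02 ± 0.24. Nr0b2, the FXR-induced repressor known as SHP, had 1 count in all 8 libraries together and was not tested.

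Abcc2 (ENSMUSG00000025194), an efflux pump of the apical membrane that carries organic anion conjugates, was the called exception among bile acid genes. It was at 14.6 CPM with tCDCA and 31.6 CPM with WT CME(-) in the first run. In the second run it was at 106, 34.2 and 52.5 CPM with tCDCA and at 143, 153 and 159 CPM with WT CME(-). The extract libraries of the second run lay close together, the tCDCA libraries all lay below them, and the first run was lower as a whole. The gene was 2.32-fold lower with tCDCA (log2 change -1.21 ± 0.23, adjusted p = 0.00834). It was lower than DMSO with tCDCA, by -0.89 (adjusted p = 0.0274), and at 0.32 with WT CME(-) (adjusted p = 0.738). The call was lost in the second-run libraries alone, at -1.25 (adjusted p = 0.0686). Abcg2, another apical efflux pump gene, chosen after its values were seen, was at 145, 127, 111 and 133 CPM with tCDCA against 211, 171, 151 and 150 CPM, a change of -0.4 ± 0.14 that did not pass (adjusted p = 0.237). Of the 9 genes of a list of FXR targets that were tested, Abcc2 alone was called, beside 0.274% of all genes called lower. The list median was 0.17, beside 0.01 over all genes. The median was -0.08 without tCDCA replicate 3.

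**Figure D2:**
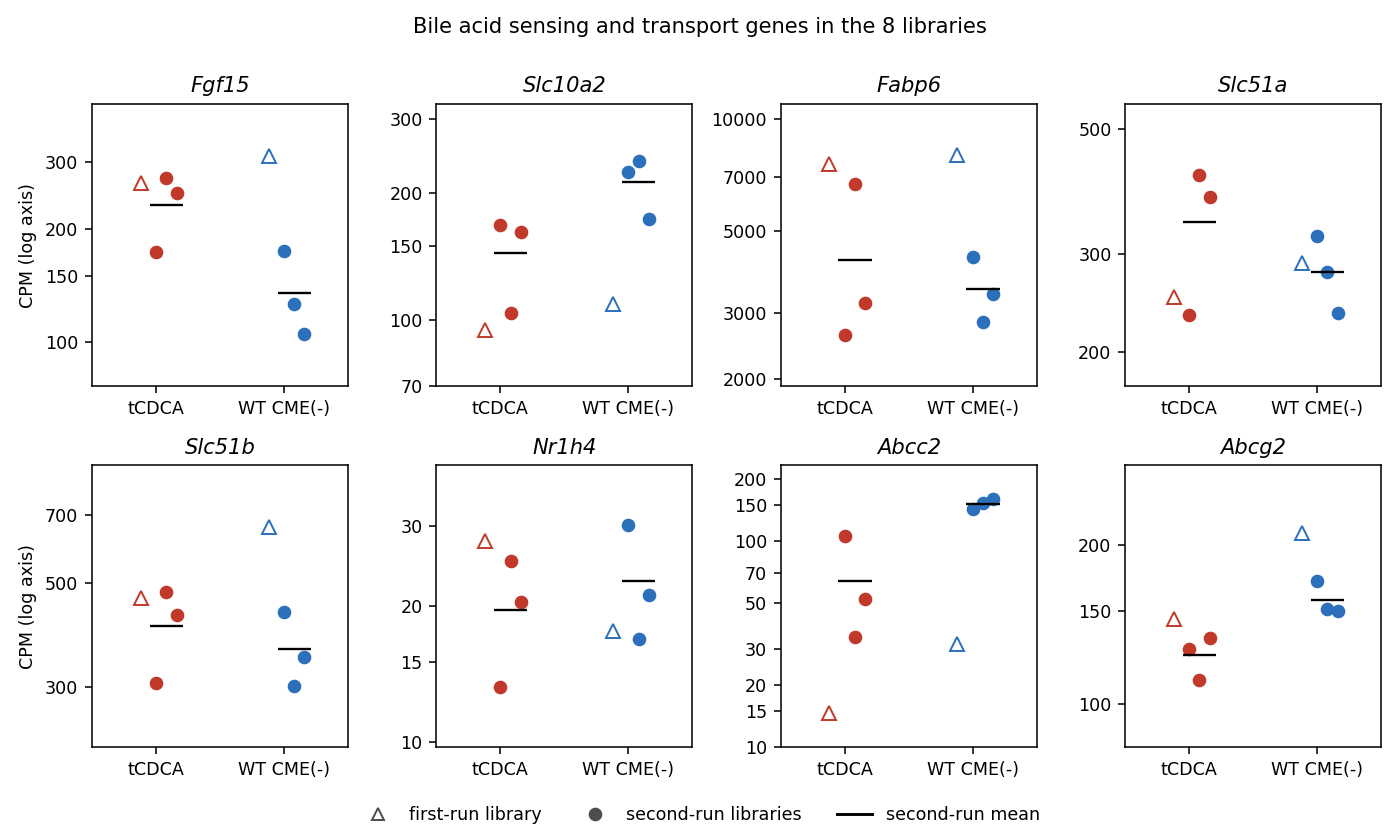
CPM on log axes for 8 bile acid genes, with the first-run library as an open triangle, second-run libraries as dots and the second-run mean as a line (tCDCA in red, WT CME(-) in blue). For Fgf15, Fabp6, Slc51a, Slc51b and Nr1h4 the groups overlap, while in the Slc10a2, Abcc2 and Abcg2 panels every tCDCA library lies below the WT CME(-) libraries of its run.

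Brush border genes, which encode the digestive enzymes and the scaffold of the absorptive surface, were called lower with tCDCA in 6 of 23 tested and higher in 0. Of all genes tested, 0.274% were called lower and 0.267% higher. All 23 had a negative log2 change, and the median was -0.7 against 0.01 over all genes. In 17 of the 23 every tCDCA library was below every WT CME(-) library within each run, beside 4.35% of all genes. The summed level of the list was 2809 to 4022 CPM in the second-run tCDCA libraries and 4986 to 7643 CPM in the WT CME(-) ones, and 3579 against 5593 CPM in the first run. In whole tissue, fewer enterocytes and less of these mRNAs per enterocyte cannot be told apart. The number called was 4 without tCDCA replicate 3, 1 without tCDCA replicate 4, 1 without WT CME(-) replicate 1 and 2 without WT CME(-) replicate 4, with medians from -0.56 to -0.67, and DESeq2 called 13. It was 2 without scaling factors (median -0.51), 2 with all 24 libraries, 3 of 22 tested with the 8 libraries alone, 0 without the run term and 11 with no low-count filter.

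Anpep (ENSMUSG00000039062), aminopeptidase N, which trims amino acids from peptides at the cell surface, led this group. It was at 346, 153, 283 and 328 CPM with tCDCA and at 764, 591, 514 and 757 CPM with WT CME(-). All 4 extract libraries were above all 4 tCDCA libraries, whichever run they came from, and the gene was 2.37-fold lower with tCDCA (-1.24 ± 0.2, adjusted p = 0.00199). DMSO libraries had 691 to 989 CPM. Dpp4, which removes dipeptides from proline-containing peptides and clears incretins, was at 117, 143, 89.0 and 99.9 CPM against 180, 179, 194 and 230 CPM, again without overlap (-0.79 ± 0.16, adjusted p = 0.00975).

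The other called brush border genes had smaller differences. Xpnpep2, a membrane aminopeptidase P, was at 34.6 to 45.1 CPM with tCDCA and 63.2 to 67.3 CPM with WT CME(-), a log2 change of -0.78. Naaladl1, a peptidase of the same membrane, was at 20.2 to 30.8 against 37.0 to 64.5 CPM (-0.98). Espn, an actin-bundling protein of microvilli, was at -0.73 and Mgam, the maltase-glucoamylase that finishes starch digestion, at -0.7, both named to complete the count of 6. Of the 6 called genes, 4 encode peptidases. Villin, encoded by Vil1 and the classical bundler of microvillar actin, was at 364, 202, 292 and 225 against 491, 338, 326 and 438 CPM, below in each run but not called (-0.56 ± 0.16, adjusted p = 0.0926). The fatty acid binding protein gene Fabp2 was at -1.05 ± 0.49 with overlapping groups (adjusted p = 0.466).

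Carriers move nutrients across the membranes of enterocytes. Among 16 amino acid and peptide carriers tested, 2 were called lower, beside 0.274% of all genes, and 0 higher, with a median of -0.3. Slc6a19 (ENSMUSG00000021565), the main sodium-coupled carrier of neutral amino acids, was at 9.22 against 24.5 CPM in the first run. It was at 72.3, 51.2 and 40.5 CPM with tCDCA and at 92.9, 84.9 and 129 CPM with WT CME(-) in the second. The change was -1.02 ± 0.19 (adjusted p = 0.00506). Slc43a2, a facilitative carrier of branched-chain and aromatic amino acids, was at 9.22, 38.3, 17.2 and 19.2 against 18.7, 45.4, 54.0 and 59.6 CPM (-1.08 ± 0.25, adjusted p = 0.045). Both genes were also lower with the extract than with DMSO, Slc6a19 by -1.09 (adjusted p = 0.00745) and Slc43a2 by -1.21 (adjusted p = 0.035), beside -2.11 and -2.28 with tCDCA. The peptide carrier gene Slc15a1 was at -0.93 ± 0.25 and did not pass (adjusted p = 0.0842). Without tCDCA replicate 1, 3 or 4, or without WT CME(-) replicate 1, 3 or 4, 1 of the 16 was called.

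None of 14 carriers of sugars, phosphate and vitamins was called by edgeR, with a median of -0.69, 8 at an unadjusted p under 0.05 (all lower, beside 5.17% of all genes), and 1 called lower by DESeq2, which called 93 lower over all genes. The glucose carrier gene Slc5a1 was at 328, 402, 289 and 296 CPM with tCDCA and 467, 473, 424 and 636 CPM with WT CME(-), below in each run (-0.6 ± 0.18, adjusted p = 0.132). The fructose carrier gene Slc2a5 spread widely, over 4.96 to 36.7 and 10.7 to 53.9 CPM (-0.9 ± 0.57). Of 23 genes of lipid absorption and lipoproteins 0 were called by edgeR, 10 passed an unadjusted p under 0.05, all lower beside the same 5.17%, DESeq2 called 2 of its 93 lower, and the median was -0.52. Apob, the structural protein of chylomicrons, was at 120, 371, 52.2 and 196 CPM with tCDCA and 168, 488, 615 and 662 CPM with WT CME(-) (-1.22 ± 0.44, adjusted p = 0.312). Apoa4 ran from 11.3 to 172 CPM with tCDCA and from 30.5 to 314 CPM with the extract, so that its interval, -3.15 to 0.12, was among the widest of the named genes.

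Genes of xenobiotic handling that answer to the receptors PXR and CAR had a median of -0.49, with 1 of 15 called lower, beside 0.274% of all genes, and 14 of 15 negative. The called gene was Sult1b1, a sulfotransferase, at 57.7 to 90.3 CPM with tCDCA and 111 to 122 CPM with WT CME(-) (-0.66 ± 0.17, adjusted p = 0.0467). Its call was lost in 12 of the 19 alternatives, among them those without tCDCA replicate 3 or 4 and without each of WT CME(-) replicates 1 to 4 (adjusted p = 0.0741 to 0.195). In those 6 fits 0 of the 15 were called, and without tCDCA replicate 1 or 2 there were 2. The cytochrome gene Cyp3a11 was at 0.892, 21.0, 4.18 and 4.71 against 1.72, 22.7, 19.4 and 39.7 CPM (-1.43 ± 0.71, adjusted p = 0.506), and the carboxylesterase gene Ces2a at -0.85 ± 0.28 (adjusted p = 0.192). These families hold near-identical copies, so their counts are uncertain. Among 18 genes of the PPAR response Vnn1, a pantetheinase that recycles vitamin B5, was called lower, beside 0.274% of all genes. It was at 14.3 against 26.4 CPM in the first run, and at 5.77, 4.7 and 2.51 against 10.9, 18.3 and 26.4 CPM in the second (-1.61 ± 0.34, adjusted p = 0.0196). That call was lost without tCDCA replicate 3 or 4 and without WT CME(-) replicate 1, 3 or 4 (adjusted p = 0.0538 to 0.109). The other 17 were not called, and the list median was -0.3. In 4 of the 8 fits without 1 library 0 of the 18 were called.

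Further genes with the largest decreases came from other functions. Acta1 (ENSMUSG00000031972), the skeletal muscle actin gene, had the smallest p of all genes tested. It was at 2.53, 2.71, 9.66 and 8.48 CPM with tCDCA and at 18.5, 22.4, 28.1 and 22.7 CPM with WT CME(-), 4.26-fold apart (-2.09 ± 0.3, adjusted p = 0.000265). It was the 1 called gene of 14 smooth muscle markers, beside 0.274% of all genes called lower. The median of those markers was -0.08. In the second run their summed level was 1536 to 2870 CPM with tCDCA and 1373 to 2325 CPM with WT CME(-). The clock output gene Dbp (ENSMUSG00000059824), a transcription factor that follows time of day, was at 1.78 against 9.67 CPM in the first run. In the second it was at 15.6, 10.7 and 8.8 against 25.4, 26.6 and 49.5 CPM (-1.69 ± 0.27, adjusted p = 0.000998). Among the 13 clock genes tested it alone was called, beside 0.274% of all genes called lower. Of the 13, 12 were negative (9 without scaling factors), and the median was -0.39. Per1 and Per2, the core repressors of the clock, were below in each run at -0.56 ± 0.24 and -0.43 ± 0.2 without passing (adjusted p = 0.369 and 0.419).

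Prlr, the prolactin receptor gene, was at 18.6, 22.7, 15.7 and 20.4 CPM with tCDCA and 37.6, 42.5, 51.1 and 56.0 CPM with WT CME(-), without overlap (-1.24 ± 0.21, adjusted p = 0.00135). Slc2a9, a urate carrier, was at 3.72 to 7.05 against 8.38 to 17.7 CPM (-1.39 ± 0.29). Slc47a1, an exporter of organic cations, was at 3.12 to 16.6 against 10.7 to 28 CPM (-1.26 ± 0.31). A1cf, a cofactor of Apob mRNA editing, was at -1.33, the amyloid precursor-like gene Aplp1 at -1.38, Fam118a at -1.46 and Prr15 at -1.18. The call of Slc47a1 was lost in 12 of the 19 alternatives, that of Fam118a in 11 and that of A1cf in 9. For Slc2a9, Prr15 and Aplp1 it was lost in 5, 4 and 2. In the second-run libraries alone Fam118a was at -0.86 (edgeR adjusted p = 0.324). Mxi1, an antagonist of Myc, was called too, at 17.5 to 26.9 against 32.2 to 54.3 CPM (-0.8 ± 0.2, adjusted p = 0.0467), but only in the fits without tCDCA replicate 1 or WT CME(-) replicate 2 did it stay so when 1 library was left out. In all of these every tCDCA library was below the extract libraries of its run.

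**Figure D3:**
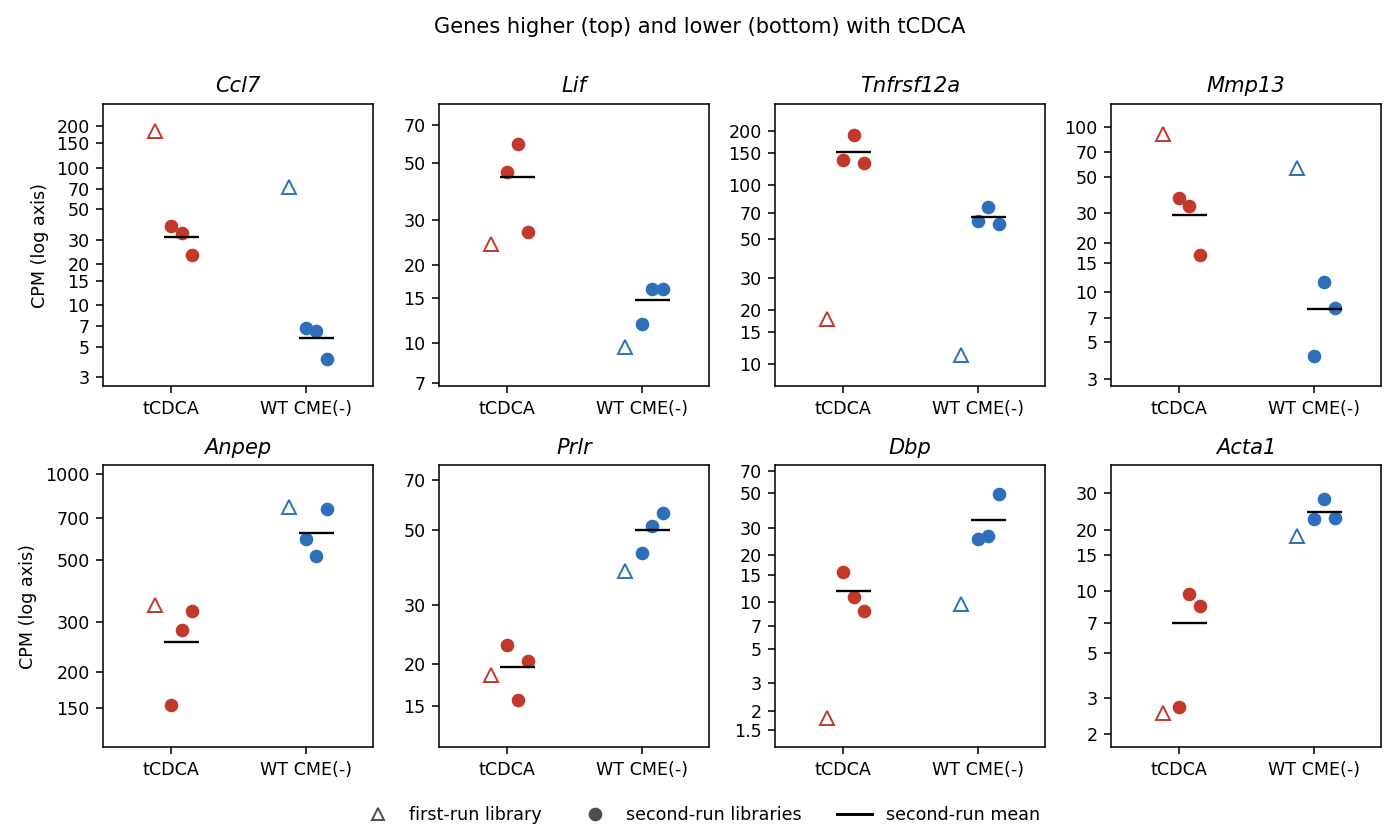
CPM on log axes for 4 genes called higher and 4 called lower with tCDCA, drawn as an open triangle for the first-run library and dots for the second run, with a line at the second-run mean. Groups are apart within each run, while the first-run levels of Ccl7, Mmp13 and Tnfrsf12a differ widely from those of the second run.

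Inflammatory genes of the NF-kB class were called higher with tCDCA in 5 of 29 tested, beside 0.267% of all genes, and lower in 0. Of the 29, 25 were positive, and the median was 0.9 against 0.01 over all genes. In 15 of the 29 every tCDCA library was above every WT CME(-) library within each run, beside 4.62% of all genes. The medians against DMSO, from contrasts that share the DMSO libraries, were 1.09 with tCDCA and 0.28 with WT CME(-). The number called was 3 without tCDCA replicate 3, 3 without WT CME(-) replicate 1 or 3, 2 without WT CME(-) replicate 4, and 10 without tCDCA replicate 1. Without tCDCA replicate 3 the median was 0.57.

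The called chemokine genes were Ccl7, Ccl2, Ccl4 and Pf4. Ccl7, Ccl2 and Ccl4 encode products that draw monocytes and other leukocytes. Pf4, named to complete these, was higher by 1.05, a call lost in 2 of the 19 alternatives. Ccl7 (ENSMUSG00000035373) was at 184 CPM with tCDCA and 72.6 CPM with WT CME(-) in the first run. In the second it was at 37.3, 33.4 and 23.2 against 6.78, 6.47 and 4.06 CPM, a 4.25-fold difference over both runs (2.09 ± 0.3, adjusted p = 0.000998). The first-run pair was several times higher than the second run in both groups, and tCDCA was above the extract in each. DMSO libraries had 8.04 to 13.3 CPM, so the second-run extract libraries lay below DMSO and the second-run tCDCA libraries above. In the edgeR fit, which also used the first-run libraries, the change against DMSO was -0.8 with WT CME(-) (adjusted p = 0.462). With tCDCA it was 1.29 (adjusted p = 0.0158). Ccl2 was at 487, 295, 182 and 109 CPM with tCDCA and at 305, 83.1, 77.0 and 67.3 CPM with WT CME(-) (1.21 ± 0.26, adjusted p = 0.0432). Its call was lost without tCDCA replicate 3 (adjusted p = 0.179) and without each of WT CME(-) replicates 1 to 4 (adjusted p = 0.0741 to 0.159). Ccl4 was at 12.6, 12.2, 9.4 and 7.85 against 4.08, 2.06, 2.52 and 2.03 CPM, without overlap (1.99 ± 0.43, adjusted p = 0.0148), a call that was lost without WT CME(-) replicate 1 or 4. Markers of myeloid cells, which can make these chemokines, had a median of 0.08 over 16 genes with 0 called by edgeR, 3 at an unadjusted p under 0.05 and 1 called higher by DESeq2. All 16 were detected, and their summed level was 162 to 202 CPM with tCDCA and 126 to 179 CPM with WT CME(-) in the second run, and 492 against 394 CPM in the first. Their part in the chemokine result was not tested.

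Lif (ENSMUSG00000034394), a cytokine of the interleukin 6 family, was at 24.2, 46.2, 59.5 and 27.0 CPM with tCDCA and at 9.67, 11.8, 16.2 and 16.2 CPM with WT CME(-). All 4 tCDCA libraries were above all 4 extract libraries (1.55 ± 0.28, adjusted p = 0.00349). Il1rn, the interleukin 1 receptor antagonist, was at 235, 82.1, 88.3 and 116 against 210, 58.1, 37.0 and 29.6 CPM (0.93 ± 0.2, adjusted p = 0.0207), with the groups close in the first run, and lost its call without tCDCA replicate 3 or 4 or WT CME(-) replicate 3 or 4. Ptges, which makes prostaglandin E2, was at 34.6, 18.0, 23.2 and 17.9 against 23.6, 5.6, 4.32 and 7.3 CPM (1.46 ± 0.29, adjusted p = 0.00883). Il6, Cxcl1 and Il1b were above in each run, at 1.29 ± 0.39, 1.26 ± 0.32 and 0.52 ± 0.21, and did not pass (adjusted p = 0.188, 0.103 and 0.312). Tnf was at 0 to 17.0 CPM over the 8 libraries and at -0.21 ± 0.63.

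A list of genes of the wounded and fetal-like epithelium had 4 of 27 called higher, 0 lower, 23 positive and a median of 0.65. In 16 of the 27 every tCDCA library was above the extract within each run. Over all genes tested 4.62% had that order, 0.267% were called higher and the median was 0.01. The summed level of the list overlapped in the second run, at 4784 to 9278 CPM with tCDCA and 3736 to 5296 CPM with WT CME(-), and was lower with tCDCA in the first, at 6965 against 8783 CPM. Medians against DMSO were 0.86 with tCDCA and 0.09 with WT CME(-). Tnfrsf12a (ENSMUSG00000023905), the receptor of the cytokine TWEAK, was at 17.8 against 11.2 CPM in the first run and at 138, 189 and 133 against 62.8, 74.8 and 60 CPM in the second (1.11 ± 0.18, adjusted p = 0.000998). The extract libraries were at the DMSO level, 52.9 to 71.5 CPM. Mmp13 (ENSMUSG00000050578), a collagenase of tissue remodelling, was at 90.2 against 56.3 CPM in the first run and at 37.3, 33.4 and 16.7 against 4.13, 11.5 and 8.11 CPM in the second (1.53 ± 0.29, adjusted p = 0.00834). Plau, the plasminogen activator urokinase, was at 32.7 to 48.6 against 15.3 to 26.4 CPM (1.04 ± 0.21), and Ereg, a ligand of the EGF receptor, at 139 to 232 against 100.0 to 127 CPM (0.72 ± 0.17, adjusted p = 0.0381), both without overlap. The call of Ereg was lost in 7 of the 8 fits that left out 1 library (adjusted p = 0.0787 to 0.146), all but the one without tCDCA replicate 1. The transcription factor gene Fosl1, an AP-1 subunit, was at 38.4, 43.8, 47.5 and 51.5 against 15.9, 26.2, 18.0 and 25.1 CPM (1.09 ± 0.23, adjusted p = 0.0148), a call lost without tCDCA replicate 4 or WT CME(-) replicate 1 or 3. The tight junction gene Cldn4 was at 0.68 ± 0.15 (adjusted p = 0.0253), a call lost without tCDCA replicate 4 or WT CME(-) replicate 3 or 4. The list of immediate early genes had 1 of 21 called higher (median 0.14) and that of tight junction genes 1 of 14 (median 0.04). Without 1 library the wound list had 3 to 5 called members.

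AP-1, the factor to which Fosl1 contributes, binds the letters TGANTCA. Promoter windows from 250 bases before to 50 bases after the start site (RefSeq, GRCm38.p6) were available for 24 of the 35 higher and 30 of the 36 lower genes and were searched on both strands with 10 motifs, chosen with the called genes known. TGANTCA stood in 4 of the 24 (Lif, Mmp13, Il1rn, Cldn4) and in 4 of the 30, against 6.65% of tested genes with a window and 7.81% of all windows. The windows of Lif (chr11:4257318-4257617, + strand) and Mmp13 (chr9:7272264-7272563, + strand) are shown because both were among the largest increases. Capitals mark the AP-1 letters, which begin 228 bases before the start site of Lif and 35 bases before that of Mmp13.
Lif: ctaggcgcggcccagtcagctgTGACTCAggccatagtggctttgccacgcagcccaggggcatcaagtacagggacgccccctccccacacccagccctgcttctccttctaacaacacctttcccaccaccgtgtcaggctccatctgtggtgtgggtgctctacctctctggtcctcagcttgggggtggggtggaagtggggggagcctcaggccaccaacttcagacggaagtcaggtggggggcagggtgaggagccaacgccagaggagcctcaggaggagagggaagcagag
Mmp13: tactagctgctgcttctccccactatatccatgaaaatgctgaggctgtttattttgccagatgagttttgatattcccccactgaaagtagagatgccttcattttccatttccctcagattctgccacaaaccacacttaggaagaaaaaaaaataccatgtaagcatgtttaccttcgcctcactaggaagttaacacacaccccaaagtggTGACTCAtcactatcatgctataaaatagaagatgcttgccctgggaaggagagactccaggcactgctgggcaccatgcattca
The consensus NF-kB and FXR inverted repeat motifs were in 0 of the windows of called genes, and in 0.241% and 0% of those of tested genes. CDX letters (TTTATNG) were in 3 of the 24 and 3 of the 30, against 8.86% of tested genes, and GATA letters (AGATAA) in 4 and 5, against 7.99%. D-box letters (TTATGTAA) were in 0 and 2, Prlr among them, against 0.629%. The cyclic AMP response element (TGACGTCA) was in 1 (Ppp1r15a) and 0, against 3.65%. HNF4 letters (CAAAGTCCA) were in 0 and 1 (Sult1b1), against 0.619%, and HNF1 letters in 0 and 0, against 0%. A match describes the letters and shows no binding, and a window without one says nothing of the factor.

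Genes of the ATF4 integrated stress response, which cells run when amino acids are short or protein synthesis is held back, were called higher in 2 of 26 tested and lower in 0. Of the 26, 25 were positive, and the median was 0.35, beside 0.267% called higher and a median of 0.01 over all genes. Chac1 (ENSMUSG00000027313), which breaks down glutathione, was at 61.4, 44.1, 76.8 and 55.3 CPM with tCDCA and at 37.8, 31.8, 28.1 and 20.3 CPM with WT CME(-). No library of either group crossed into the other, and the gene was 2.02-fold higher (1.01 ± 0.21, adjusted p = 0.0132). Slc7a11 (ENSMUSG00000027737), the cystine carrier that feeds glutathione synthesis, was at 47.7, 38.7, 37.6 and 35.8 against 32.9, 18.6, 13.3 and 19.1 CPM (0.98 ± 0.22, adjusted p = 0.0196). Without tCDCA replicate 3 neither was called, at 0.83 (adjusted p = 0.078) for Chac1 and 0.94 (adjusted p = 0.0535) for Slc7a11. Without WT CME(-) replicate 4 they were at 0.89 (adjusted p = 0.103) and 1.01 (adjusted p = 0.0531). The call of Slc7a11 was lost too without tCDCA replicate 4 (adjusted p = 0.0636) or WT CME(-) replicate 3 (adjusted p = 0.111). Ppp1r15a, a phosphatase subunit that ends this response, was chosen after its values were seen. It was at 51.9 against 49.8 CPM in the first run and at 209, 169 and 194 against 77.2, 100.0 and 73.4 CPM in the second (0.93 ± 0.18, adjusted p = 0.00464). Atf4, Trib3 and Asns were at 0.47 ± 0.16, 0.89 ± 0.26 and 0.53 ± 0.19 without passing (adjusted p = 0.223, 0.12 and 0.259), and Ddit3 was at 0.08 ± 0.29.

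The 2 called genes of this list were the 2 of the 24 higher genes with a window that held the core letters of the amino acid response element, TGATGNAA, which stood in 0 of the 30 lower genes, 2.94% of tested genes and 3.97% of all windows. They are shown for that reason, Chac1 at chr2:119350992-119351291 on the + strand and Slc7a11 at chr3:50443564-50443863 on the - strand (RefSeq, GRCm38.p6). Capitals mark the letters on either strand, which begin 193 bases before the start site of Chac1 and 66 and 47 bases before that of Slc7a11.
Chac1: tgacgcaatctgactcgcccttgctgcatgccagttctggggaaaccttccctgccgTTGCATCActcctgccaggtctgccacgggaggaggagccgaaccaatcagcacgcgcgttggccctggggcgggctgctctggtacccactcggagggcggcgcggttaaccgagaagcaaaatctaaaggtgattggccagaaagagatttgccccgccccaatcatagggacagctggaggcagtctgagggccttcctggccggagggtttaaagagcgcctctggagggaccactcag
Slc7a11: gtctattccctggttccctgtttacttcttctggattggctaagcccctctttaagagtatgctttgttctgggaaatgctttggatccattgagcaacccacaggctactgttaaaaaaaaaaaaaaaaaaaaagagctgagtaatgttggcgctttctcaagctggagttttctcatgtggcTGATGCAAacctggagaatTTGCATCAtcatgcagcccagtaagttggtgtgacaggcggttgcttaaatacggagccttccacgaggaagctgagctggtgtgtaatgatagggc

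Other stress lists held 1 called gene. NRF2 targets, which guard against oxidants, had Slc7a11 as the 1 called member of 19, beside 0.267% of all genes called higher. They had 17 positive members and a median of 0.3. Hmox1, the haem-degrading enzyme, was at 7.73 against 7.09 CPM in the first run and at 39.7, 65.8 and 68.5 against 27.7, 24.8 and 26 CPM in the second (0.96 ± 0.32, adjusted p = 0.224). The unfolded protein response and the heat shock genes had medians of -0.1 and -0.04, with 0 of 18 and 0 of 15 called by edgeR or DESeq2. At an unadjusted p under 0.05 both lists had 1 in each direction, beside 5.52% of all genes higher and 5.17% lower. MHC class II genes, by which cells present antigen, were all negative, 8 of 8, with a median of -0.63. However, 0 were called by edgeR, and 1 was among the 93 genes that DESeq2 called lower. At an unadjusted p under 0.05 there were 3, all lower, beside 5.17% of all genes.

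Lists of markers of other cell types had medians on both sides of that of all genes, 0.01. Medians were 0.18 for 13 Paneth cell, 0.03 for 13 goblet cell, 0.2 for 15 enteroendocrine, -0.12 for 13 fibroblast and 0.01 for 13 endothelial markers, with 0 called by edgeR or DESeq2 apart from the endothelial gene Ackr1. At an unadjusted p under 0.05 these 5 lists had 1, 2, 5, 2 and 1 members, beside 5.52% of all genes higher and 5.17% lower. All 5 enteroendocrine members were higher. The Paneth and endothelial ones were higher too, and the goblet and fibroblast ones went 1 each way. The summed enteroendocrine markers were at 647 to 834 against 534 to 578 CPM in the second run and 705 against 721 CPM in the first. The summed Paneth markers were at 50226 against 26838 CPM in the first run and overlapped in the second, at 38421 to 60673 against 42497 to 53627 CPM, and their median was -0.08 in the second-run libraries alone. The lists farthest from the median of all genes were 10 T and NK cell markers at -0.44, 6 B and plasma cell markers at -0.54, 8 tuft cell markers at 0.34 and 8 adipocyte and mesothelial markers at 0.38, while 11 crypt stem cell markers were at -0.14, 13 of enteric neurons and glia at -0.1 and 5 of erythrocytes and pancreas at -0.02. Of these 7 lists 0 members were called by edgeR or DESeq2, and at an unadjusted p under 0.05 there were 2 crypt stem cell, 1 enteric neuron or glia and 1 adipocyte or mesothelial markers and 0 in the other 4 lists. The part of other cells in the called differences was not tested. Ackr1 (ENSMUSG00000037872), a chemokine-binding receptor of venules, was at 8.77, 11.9, 20.1 and 16.3 CPM with tCDCA and at 1.5, 2.36, 7.55 and 4.46 CPM with WT CME(-), without overlap (1.94 ± 0.35, adjusted p = 0.00349). The summed endothelial markers, Ackr1 among them, were at 176 to 203 CPM with tCDCA and 155 to 186 CPM with the extract in the second run, and at 155 against 157 CPM in the first. Rbm14, Ranbp3, Ints5 and Fam207a, genes of nuclear or ribosome-related functions, were higher by 1.23, 1.17, 1.13 and 1.52. Their calls were lost in 8, 9, 11 and 9 of the 19 alternatives. In the second-run libraries alone Ranbp3, Ints5 and Fam207a were not called (edgeR adjusted p = 0.0584, 0.117 and 0.104). For Ranbp3 and Fam207a the tCDCA libraries were at the DMSO level, with changes against DMSO of -0.04 (adjusted p = 0.972) and 0.17 (adjusted p = 0.872), while WT CME(-) was at -1.21 (adjusted p = 0.0582) and -1.35 (adjusted p = 0.127).

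**Figure D4:**
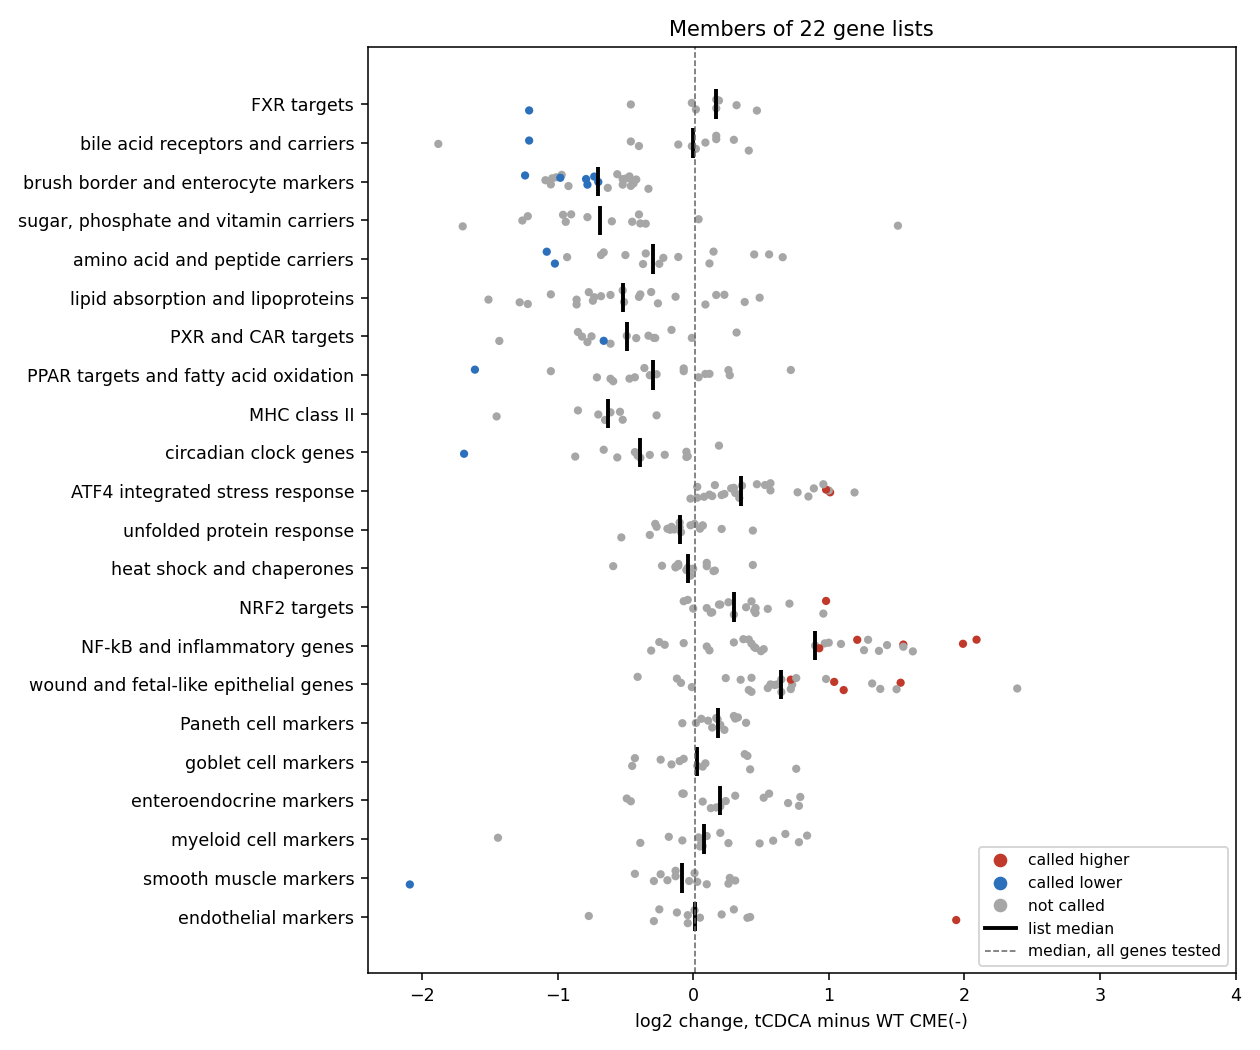
Log2 changes (tCDCA minus WT CME(-), x axis) of the tested members of 22 gene lists, 1 dot per gene, red or blue where called, with a bar at each list median and a dashed line at 0.01, the median over all genes. The brush border list lies wholly below 0 with a median of -0.7, and the NF-kB and wound lists have medians of 0.9 and 0.65.

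Set against DMSO, 746 genes (5.68%) were called with tCDCA, 331 (2.52%) higher and 415 (3.16%) lower. With WT CME(-) 39 (0.297%) were, 14 (0.107%) higher and 25 (0.19%) lower. These contrasts share the 3 DMSO libraries, all of the second run, as the first-run DMSO library is marked as removed. The first-run libraries of the treatments therefore enter them only through the run term, estimated from the other groups. The brush border median was -1.35 with tCDCA and -0.51 with WT CME(-), with 19 and 2 of the 23 genes called lower. The ATF4 median was 0.92 with tCDCA and 0.31 with WT CME(-), with 14 and 0 of the 26 called higher. The difference between the treatments themselves is the contrast tested above, in which 6 and 2 members of these lists were called.

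The WT extract could also be set against other extracts. WT CME(-) differed from the CME(-) extract of Asbt-/- donors in 0 genes by edgeR and 0 by DESeq2, with 531 (4.05%) at an unadjusted p under 0.05, fewer than the 656 that chance would give. It differed from the WT CME(+) extract in 0 genes by edgeR, with 831 (6.33%) at an unadjusted p under 0.05, and in 12 by DESeq2. Against Asbt-/- CME(-), tCDCA had 15 called genes (0.114%). Acta1 was at -1.83 in that contrast (adjusted p = 0.00683), Dbp at -1.77 (adjusted p = 0.00353), Prlr at -1.19 (adjusted p = 0.0156), Naaladl1 at -1.13 (adjusted p = 0.0282) and Lif at 1.62 (adjusted p = 0.0282). Slc2a9 was at -1.45 (adjusted p = 0.0393), Prr15 at -1.25 (adjusted p = 0.0289) and Ereg at 0.9 (adjusted p = 0.0393). That contrast uses the same tCDCA libraries as the one with WT CME(-), so the 2 are not independent. Anpep, at -0.75 (adjusted p = 0.209), Ccl7, at 1.29 (adjusted p = 0.123), Tnfrsf12a, at 0.73 (adjusted p = 0.15), and Abcc2, at -0.66 (adjusted p = 0.394), did not pass there. Fgf15 was at 216 to 329 CPM in the second-run Asbt-/- CME(-) libraries, and tCDCA differed from them by -0.23 ± 0.28 (adjusted p = 0.909).

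**Figure D5:**
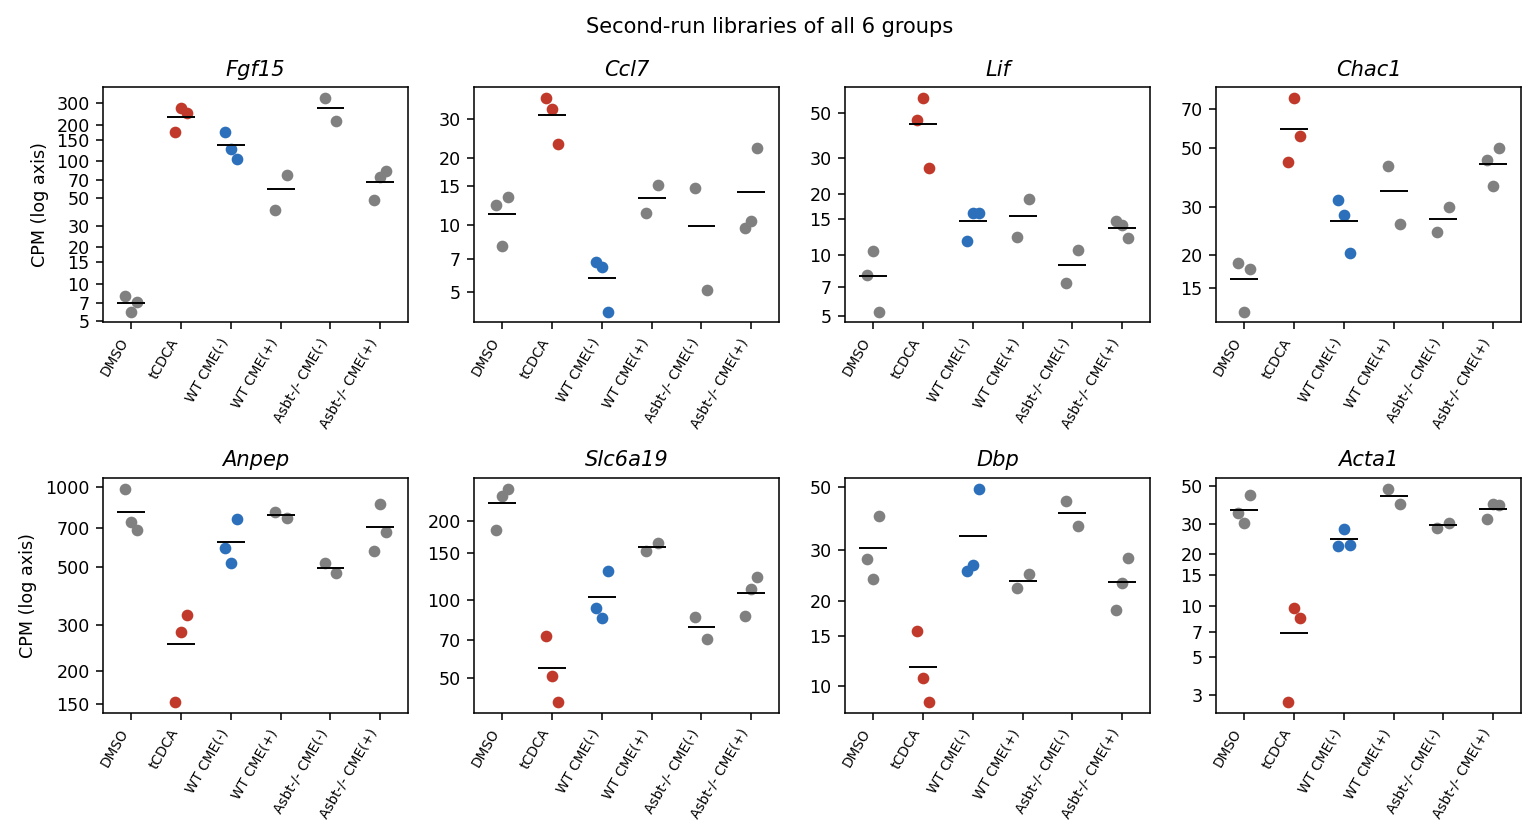
CPM on log axes for 8 genes in the second-run libraries of all 6 groups, 1 dot per library with a line at the mean (tCDCA red, WT CME(-) blue, others grey). Fgf15 is lowest with DMSO, at 5.94 to 7.95 CPM, while for Lif, Anpep, Dbp and Acta1 the tCDCA libraries lie apart from those of every other group shown.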

How the data were processed

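Deposited values were whole-number counts per gene from QuantSeq 3' mRNA libraries, not normalized by the authors. FastQC, cutadapt, HISAT2, Picard and the build GRCm39 are named in the submitters' processing notes, with versions, counting tool and annotation not given in the sources used here. Symbols came from GENCODE M21 names, which matched 51884 of 57126 identifiers and 88.4% of counts. Being of another build, it gave no gene coordinates. The tests used edgeR 4.0.16 under R 4.3.3 (filterByExpr, TMM, robust quasi-likelihood test, terms for group and run) on 21 libraries. The 3 libraries that the labels mark as removed were left out. Tests were two-sided, Benjamini-Hochberg adjusted over 13125 genes, and intervals are 95%. The common biological coefficient of variation was 0.266 and the median SE of a log2 change 0.31. DESeq2 1.42.0, other filters, scalings and library sets were alternatives. No 2 of the 8 libraries were near duplicates, the closest pair having a chi-square of 8.62 per degree of freedom.

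The members, lists and motifs were chosen with earlier results of these data known, so no list count is independent evidence. The text names 6 bile acid genes, the 12 largest called changes per direction with a mean log2 CPM of at least 3, up to 4 called members per list, and fixed anchor genes of the lists.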

Additional observations from a re-analysis of the deposited data

Results flagged for a closer look

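In each group of 4 libraries, the highest or lowest value of each gene named above except Pf4 was compared with its nearest neighbour. A group was marked where that gap was a larger share of its range than Dixon's limit for 4 values allows. Chance marks about 1 in 20 groups, and 21 of the 148 groups examined were marked, 15 of them through the first-run library.

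In the first-run WT CME(-) library Abcc2 (31.6 CPM) and Hmox1 (7.09 CPM) lay far below the second-run replicates. Ccl7 (72.6 CPM), Ccl2 (305 CPM), Il1rn (210 CPM), Il1b (105 CPM), Il6 (89.4 CPM), Cxcl1 (407 CPM), Ptges (23.6 CPM), Mmp13 (56.3 CPM) and Cldn4 (637 CPM) lay far above them. In the first-run tCDCA library Ccl7 (184 CPM), Il1b (112 CPM) and Cldn4 (795 CPM) were far above and Per2 (11.7 CPM) far below. The run term of the model is shared by all groups.

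In the second run, tCDCA replicate 2 stood above the other tCDCA libraries for the apolipoprotein genes Apoa1 (1036 CPM) and Apoa4 (172 CPM) and for Aplp1 (20.7 CPM). WT CME(-) replicate 4 stood apart for Fabp2 (2616 CPM) and, with its single count, Nr0b2 (0.406 CPM), and WT CME(-) replicate 2 was low for Ddit3 (10.3 CPM).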

How the results depend on the processing

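The main count was 71 called genes (35 higher, 36 lower). It was 177 with DESeq2 (84 and 93) and 196 with no low-count filter (99 and 97), 39 with all 24 libraries, 17 with the 8 libraries alone and 0 without the run term. Leaving out 1 library gave 30 to 135. Without scaling factors it was 50, split 40 higher and 10 lower, with the median of all genes at 0.18, so directions above are relative to the TMM scaling. Whether replicate numbers pair the second-run libraries is not known. Deviations of same-numbered libraries correlated at -0.12, -0.09 and -0.07, and those of different-numbered ones at 0.01 to 0.08. With 3 libraries per group, each centred on its own group mean, these values cannot decide it. With the replicate block on the 8 libraries alone 17 genes were called (9 higher, 8 lower), 12 of them among the 71.

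Of the 73 named genes tested, Pf4 not counted, 0 of the 41 called ones changed sign in any alternative. Signs reversed for uncalled genes near 0. Slc51b was at 0.19 without scaling factors, at 0.15 in the second run alone, at 0.09 and 0.08 without tCDCA replicates 1 and 2, and at 0.11 and 0.06 without WT CME(-) replicates 1 and 2. Nr1h4 was at -0.23 in the second run alone, at -0.12 and -0.08 without tCDCA replicates 1 and 3, and at -0.13 and -0.07 without WT CME(-) replicates 1 and 3. Leaving out 1 library gave -0.14 to 0.11 for Slc51b and -0.13 to 0.25 for Nr1h4. Fabp6 was at -0.19 without tCDCA replicate 3 and at up to 0.33 without another. Ddit3 was at -0.2 without tCDCA replicate 3 and -0.1 without WT CME(-) replicate 2, with up to 0.22 without another. Tnf was at 0.02 without tCDCA replicate 4 and 0.29 without WT CME(-) replicate 3, with -0.59 as its lowest value. The cause of these shifts was not tested.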
